A study of Saccharomyces cerevisiae with 24 samples.

Results

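Rad6 is the ubiquitin-conjugating enzyme of budding yeast that places ubiquitin on histone H2B, and the comparison described here set cells with a Rad6 protein altered at residue 6 (rad6-R6Q) against cells with no RAD6 gene at all. The 6 libraries were chosen by their labels, 3 of rad6-R6Q and 3 of the tagged RAD6 deletion (rad6D tagged), of 24 in the series. The series measured strand-specific, rRNA-depleted RNA from log-phase cultures in rich medium (YPD), mixed with Kluyveromyces lactis cells at 9 parts to 1 by optical density. Its 8 strains, with 3 biological replicates each, were compared to ask how the Paf1 complex subunit Rtf1 works with the N-terminal helix of Rad6. All strains were MATa haploids that carried the ura3-52, trp1Δ63, lys2-128Δ and his3Δ200 alleles. The rad6-R6Q strain expressed rad6-R6Q with a 13xMyc tag (marked with KanMX) together with 3xHA-RTF1. The rad6D tagged strain carried the same 3xHA-RTF1 and rad6Δ::KanMX, so its only tag was on Rtf1. WT tagged had 3xHA-RTF1 and RAD6-13xMyc::KanMX, WT untagged neither tag, and rad6D untagged only rad6Δ::KanMX. The H2B-K123R strain, also untagged, had the ubiquitylated lysine of H2B replaced in both H2B genes (htb1 and htb2). Also used were rad6-R6A,M10A, built like rad6-R6Q, and rtf1-108-110AAA, which joins an altered 3HA-tagged rtf1 to RAD6-13xMyc. Each strain is a single strain number in the labels, so strain background cannot be told apart from genotype.

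Rad6 works with several ubiquitin ligases. With Bre1 it marks H2B on transcribed genes, which Rtf1 stimulates by touching Rad6. With Ubr1 it destroys N-degron proteins and the repressor Cup9, which holds the peptide transporter gene PTR2 off. With Ubr2 and Mub1 it destroys Rpn4, the activator of proteasome genes, and with Rad18 it modifies PCNA in post-replication repair. A deletion removes all of these activities, whereas rad6-R6Q cells still contain a Rad6 protein. The deletion effects were taken here from the untagged pair, rad6D untagged against WT untagged, which shares no library with rad6-R6Q against rad6D tagged.

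The sequences that follow show the reference codons that were altered and the promoter elements of gene groups in which the strains differed. In the first, from the start of the RAD6 coding sequence (reference assembly R64, chrVII:393986-394030, plus strand), capitals mark codons 6 (AGA) and 10 (ATG), the codons altered in the mutant strains; the reference letters are shown.
RAD6: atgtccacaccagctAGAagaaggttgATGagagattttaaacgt
In the next 3, capitals mark the pheromone response element TGAAACA, the Ste12 site, in either orientation upstream of PRM1 (chrXIV:110720-110779, plus strand), FUS1 (chrIII:71603-71662, plus strand) and SST2 (chrXII:1041579-1041638, minus strand).
PRM1: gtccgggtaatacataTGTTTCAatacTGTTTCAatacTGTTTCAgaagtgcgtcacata
FUS1: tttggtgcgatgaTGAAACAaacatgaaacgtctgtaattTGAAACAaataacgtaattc
SST2: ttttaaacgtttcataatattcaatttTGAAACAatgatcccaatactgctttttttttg
In the last 3, capitals mark the proteasome element GGTGGCAAA, the Rpn4 site, upstream of RPT2 (chrIV:437890-437949, plus strand) and RPN1 (chrVIII:164823-164882, minus strand), and CACGTG, an E-box bound by Cbf1 and by Pho4, upstream of MET14 (chrXI:439581-439640, minus strand).
RPT2: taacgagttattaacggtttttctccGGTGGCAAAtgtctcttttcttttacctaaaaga
RPN1: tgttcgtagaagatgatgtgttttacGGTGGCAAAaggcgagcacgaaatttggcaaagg
MET14: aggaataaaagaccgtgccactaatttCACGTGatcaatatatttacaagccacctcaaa
Over the 300 bases before the start codon, on both strands and with overlapping matches allowed, TGAAACA was in 6.99% of the 5569 promoters searched, GGTGGCAAA in 1.29% and CACGTG in 3.63%. The 20 pheromone-induced genes held TGAAACA in 11 promoters, the 36 genes of the proteasome list held GGTGGCAAA in 27, and the 29 sulfate and methionine genes held CACGTG in 10. Of the 942 genes with a promoter that were called between rad6-R6Q and rad6D tagged, 71 held TGAAACA, 20 GGTGGCAAA and 31 CACGTG. A match describes these letters and is not evidence of binding.

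The sense counts summed to 9329545, 10782960 and 10191068 in the 3 rad6-R6Q libraries and to 7588178, 7227245 and 7451375 in the rad6D tagged libraries, so rad6-R6Q was read more deeply. The rad6-R6Q replicates lay farther apart than those of any other strain: the median standard deviation of log2 CPM (counts scaled to a common library size) over 3981 genes was 0.216 in rad6-R6Q against 0.116 in rad6D tagged and at most 0.188 in the other strains. rad6-R6Q replicates 1 and 2 stood farthest from their group, so the counts of the main gene groups are given below also without replicate 1 and without replicate 2. The spike-in ratio (log2, S. cerevisiae over K. lactis) was 2.75 ± 0.02 in rad6-R6Q and 2.704 ± 0.06 in rad6D tagged (SD, n = 3), and the difference was not larger than the spread (two-sided exact permutation test, p = 0.3, smallest possible 0.1). Scaling by K. lactis counts moved the median log2 difference over all genes from -0.02 to -0.14 and the calls from 475 higher and 476 lower to 241 higher and 721 lower, so small rises depend on the scaling. SDC1, PAF1, CAR1, NOP4, NHP2, ERG10 and FET5 were the named genes whose call was lost with that scaling, and all 7 were rises. The cells were a-type in every library: the 4 alpha-specific genes summed to 5.49 to 8.88 CPM in both strains, against 773 CPM or more for the 7 a-specific genes.

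RAD6 itself (YGL058W, chromosome VII, 393986 to 394504) checked the labels. It had 112, 146 and 119 CPM in rad6-R6Q, 46.8, 56.8 and 45.7 CPM in WT tagged, and 0, 0.123 and 0.126 CPM in rad6D tagged. The deletion libraries thus held at most a single RAD6 count each. The rad6-R6Q allele was read at a higher level than its tagged wild-type counterpart (log2 difference 1.34 ± 0.17 SE, edgeR adjusted p = 1.27e-05). RAD6 also lay above WT tagged in rad6-R6A,M10A, at 142, 151 and 162 CPM. In rtf1-108-110AAA, which carries a tagged RAD6 of wild-type sequence, it had 68.8, 95.1 and 132 CPM. A RAD6 level above WT tagged was thus not particular to rad6-R6Q, and its cause was not tested. RTF1, which carries the same 3xHA tag in both strains, had 196, 189 and 162 CPM in rad6-R6Q and 171, 182 and 146 in rad6D tagged, a difference that did not pass the test (0.13, edgeR adjusted p = 0.60).

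The deletion effects were partly avoided. Of 5790 genes tested, 951 differed between rad6-R6Q and rad6D tagged (16.4%; edgeR quasi-likelihood test, Benjamini-Hochberg adjusted p under 0.05), 475 higher (8.2%) and 476 lower (8.22%) in rad6-R6Q. In the untagged strains the deletion changed 2476 genes (42.8%), of which 1291 rose (22.3%) and 1185 fell (20.5%). Of the raised genes, 284 (22.0%) were lower in rad6-R6Q than in rad6D tagged, 22 were higher and 985 were not called. Of the lowered genes, 288 (24.3%) were higher in rad6-R6Q, 25 were lower and 872 were not called. In rad6D tagged against WT tagged, 939 of the 1291 rises and 807 of the 1185 falls were called the same way. The counts of 284 and 288 did not require such a call in the tagged strains. For 590 of the 1291 and 403 of the 1185, the 95% interval of rad6-R6Q minus rad6D tagged lay within 0.5 log2 units of 0. Among deletion rises of at least 2-fold, 109 of 295 (36.9%) were lower in rad6-R6Q. Among falls of at least 2-fold, 64 of 247 (25.9%) were higher.

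Avoidance was graded rather than complete. The 284 deletion rises that were lower in rad6-R6Q had a median log2 difference from WT tagged of 0.90 in rad6D tagged and 0.27 in rad6-R6Q. For 94 of them the 95% interval of rad6-R6Q lay within 0.5 log2 units of WT tagged, whereas 97 were still called above WT tagged. The 288 falls had medians of -0.75 in rad6D tagged and -0.22 in rad6-R6Q, with 126 inside that interval and 104 still below WT tagged. These genes were selected by the rad6D tagged libraries, so the medians describe them and carry no test. The count of 951 fell to 531 without rad6-R6Q replicate 1, to 585 without rad6D tagged replicate 1 and to 571 without rad6D tagged replicate 2. It was 694 without rad6-R6Q replicate 3, 731 without rad6D tagged replicate 3 and 1316 without rad6-R6Q replicate 2. The main fit took spread from all strains together. The median standard deviation was 0.216 in rad6-R6Q and at most 0.188 in other strains. Standard errors, adjusted p-values and intervals of rad6-R6Q may therefore be too small. With spread taken only from the groups compared, the count of 951 fell to 339. The interval counts of 94 and 126 were not recomputed in that way. A core of 376 genes, 186 higher and 190 lower, was called in the same direction in all 6 fits that left out a library, and 278 of these moved against their effect in the untagged deletion.

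**Figure D1:**
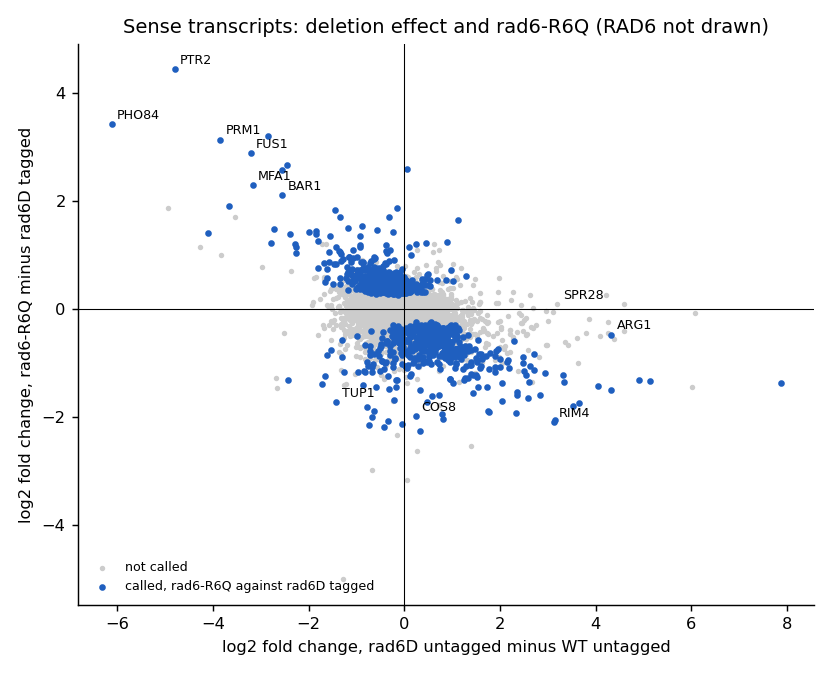
Each point is a gene; the x axis is the log2 fold change of rad6D untagged over WT untagged and the y axis that of rad6-R6Q over rad6D tagged, from edgeR. Blue points were called on the y axis; PTR2, PHO84, PRM1 and FUS1 lie upper left (lowered by deletion, higher in rad6-R6Q), while SPR28 lies beside the horizontal axis at 3.20.

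PTR2, the di- and tripeptide transporter gene that Cup9 represses (YKR093W, chromosome XI, 615730 to 617535, plus strand), showed the clearest avoidance. It had 113, 157 and 127 CPM in rad6-R6Q, 5.61, 5.43 and 7.31 CPM in rad6D tagged, and 158, 173 and 154 CPM in WT tagged. No rad6-R6Q library came near the deletion, and the wild-type libraries lay just above or beside the rad6-R6Q ones. The log2 difference from rad6D tagged was 4.43 ± 0.17 (21.6-fold, edgeR adjusted p = 2.3e-14), and that from WT tagged was -0.29 and did not pass the test (adjusted p = 0.12). In the untagged strains the deletion lowered PTR2 by 4.80 log2 units.

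CUP9 mRNA (YPL177C, chromosome XVI, 213042 to 213962) was itself higher in rad6-R6Q, with 9.60, 12.9 and 13.96 CPM against 5.13, 6.29 and 6.05 in rad6D tagged. The groups did not overlap (1.06 ± 0.21, edgeR adjusted p = 0.0015). UBR1, the N-degron ligase, went the other way, with 141, 157 and 152 CPM against 224, 234 and 217, and rad6-R6Q matched WT tagged (143, 152 and 148 CPM) to within 0.02 log2 units. OPT2, an oligopeptide transporter gene, rose past both: 76.1, 87.9 and 87.7 CPM in rad6-R6Q, 36.6, 30.6 and 39.8 in rad6D tagged and 19.8, 13.9 and 16.8 in WT tagged. Of the 13 genes of the Ubr1 and peptide transport list, 4 were higher (PTR2, CUP9 and OPT2 among them) and 1 lower in rad6-R6Q.

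Mating genes escaped part of the loss seen in the deletion. The 7 a-specific genes encode, among others, the a-factor pheromone, its exporter, the alpha-factor receptor and the protease that degrades alpha-factor, and all 7 were higher in rad6-R6Q than in rad6D tagged (median log2 1.25, against -0.02 over all genes tested; 6 without rad6-R6Q replicate 1, 7 without replicate 2). All 7 had fallen in the untagged deletion. Their summed level was 1900 to 2087 CPM in rad6-R6Q, 773 to 884 CPM in rad6D tagged and 3281 to 3420 CPM in WT tagged, so rad6-R6Q lay between with no overlap. Among the 11 haploid-specific genes 7 were higher (median 0.47; 7 without rad6-R6Q replicate 1, 6 higher and 1 lower without replicate 2), and among the 20 pheromone-induced genes 10 were higher and none lower (median 0.77; 9 without either doubted replicate). The untagged deletion had lowered 10 of the 11 and 16 of the 20. Of the 10 pheromone-induced genes that were higher, 7 had TGAAACA in the promoter, as did 11 of all 20.

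Among the a-specific genes, BAR1, which encodes the secreted protease that cuts alpha-factor (YIL015W, chromosome IX, 322342 to 324105), had 544, 538 and 473 CPM in rad6-R6Q, 120, 124 and 118 in rad6D tagged and 786, 760 and 779 in WT tagged. Its log2 difference from the deletion was 2.10 ± 0.10 (edgeR adjusted p = 1.1e-12), and that from WT tagged was -0.58 (adjusted p = 0.00014). The 3 strains stood in 3 separate steps. STE6, the a-factor exporter gene, showed the same order at 1101, 840 and 839 CPM in rad6-R6Q, 478, 504 and 444 in rad6D tagged and 1259, 1198 and 1310 in WT tagged. MFA1, an a-factor gene that overlaps a gene on the other strand, had 33.7, 15.96 and 16.6 CPM in rad6-R6Q and 3.91, 4.93 and 4.66 in rad6D tagged. The replicate 1 library was the high one there, and all 3 stayed above the deletion (2.29 ± 0.26, edgeR adjusted p = 2.7e-06). ASG7, a regulator of the mating G protein, differed by 1.25 ± 0.20 (adjusted p = 0.00024).

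The pheromone pathway genes behaved in the same way. PRM1, which promotes fusion of mating cells (YNL279W, chromosome XIV, 110917 to 112902), had 34.3, 38.9 and 35.8 CPM in rad6-R6Q against 3.66, 3.82 and 4.92 in rad6D tagged and 71.0, 55.2 and 74.4 in WT tagged. Its log2 difference from the deletion was 3.13 ± 0.19 (edgeR adjusted p = 8.3e-11), and it stayed below WT tagged by 0.88 log2 units. FUS1, another fusion gene, had 30.5, 26.2 and 23.8 CPM against 3.29, 3.33 and 4.29 (2.88 ± 0.17, adjusted p = 5.4e-11). FIG1, needed for efficient mating, had 20.2, 21.9 and 13.1 CPM against 2.44, 3.45 and 3.40 (2.57 ± 0.32), a difference that also passed the adjusted threshold of 0.05. The rad6-R6Q and deletion libraries of these genes did not overlap, but that was a condition for naming them. Of the 5790 genes tested, 776 were called without overlap at 10 CPM or more.

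The signalling genes were restored in part. SST2, the GTPase-activating protein that turns the pathway off (YLR452C, chromosome XII, 1039270 to 1041366, minus strand), had 224, 239 and 216 CPM in rad6-R6Q, 86.8, 80.2 and 78.3 in rad6D tagged and 661, 621 and 735 in WT tagged. It therefore rose by 1.47 log2 units over the deletion (edgeR adjusted p = 1.6e-09) and remained 1.57 units below WT tagged. FAR1, which arrests the cell cycle in response to pheromone, rose by 1.44, GPA1, the G protein alpha subunit, by 1.02 and STE4, the beta subunit, by 0.86 (each SE at most 0.10, adjusted p at most 1.2e-07). PRM5 reached the wild-type range, with 122.5, 113 and 102 CPM in rad6-R6Q and 105, 109 and 119 in WT tagged, against 65.7, 54.9 and 63.8 in rad6D tagged.

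**Figure D2:**
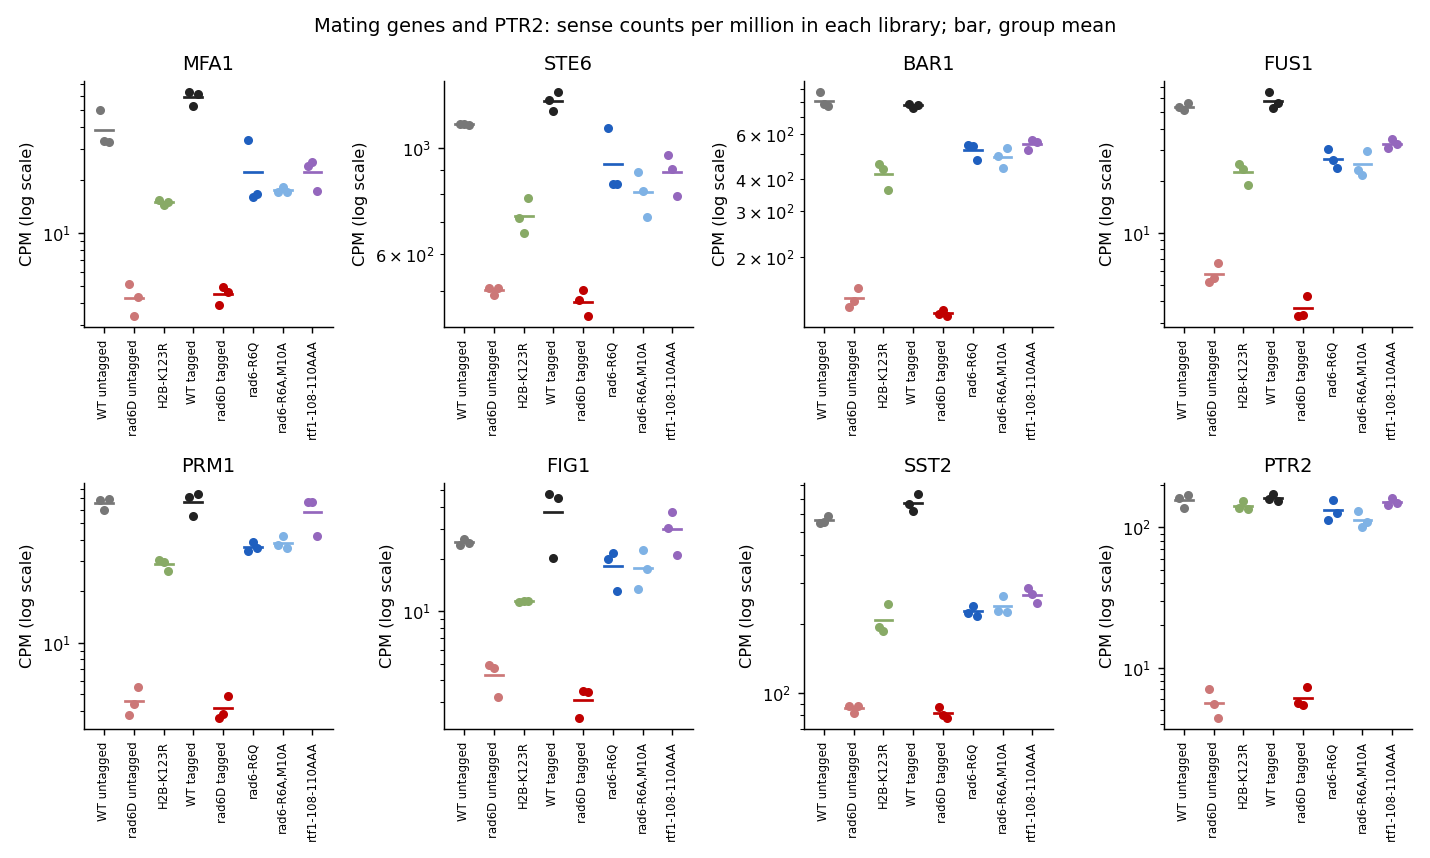
Sense CPM (log axis) of 7 mating genes and PTR2 in each library of the 8 strains; points are libraries and bars are group means. SST2 in rad6-R6Q sits between rad6D tagged and WT tagged at 216 to 239 CPM, while PTR2 in rad6-R6Q reaches 113 to 157 CPM.

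Ribosomal protein genes, which the deletion lowers, were also partly spared. Of 132 tested, 104 fell and none rose in the untagged deletion, and 58 were higher and 2 lower in rad6-R6Q than in rad6D tagged (median 0.37; 36 higher without rad6-R6Q replicate 1, 66 without replicate 2, and 38 with K. lactis scaling). RPL18B had 638, 528 and 647 CPM in rad6-R6Q, 390, 359 and 401 in rad6D tagged and 611, 580 and 620 in WT tagged. RPS0A had 1631, 1347 and 1283 CPM against 983, 943 and 863 in rad6D tagged. Both reached the wild-type range, whereas the median of the group stayed at -0.24 from WT tagged. Many ribosomal protein genes have a near-identical copy, so reads of such a pair may be split between them. Ribosome biogenesis factors moved less: 5 of 40 were higher and none lower (2 without rad6-R6Q replicate 1, 12 without replicate 2), with GAR1, of the H/ACA particles, at 0.59 ± 0.10 (adjusted p = 0.00027).

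Sulfate and methionine genes rose above both comparison strains. Of 29 tested, 13 were higher and 1 lower in rad6-R6Q (median 0.47; 14 higher without rad6-R6Q replicate 1, 12 without replicate 2), and their median stood at 0.39 over WT tagged against -0.32 for rad6D tagged. MET14, the APS kinase gene (YKL001C, chromosome XI, 438777 to 439385), had 95.5, 96.4 and 91.6 CPM in rad6-R6Q, 28.3, 26.4 and 32.3 in rad6D tagged and 46.6, 38.4 and 51.3 in WT tagged. The rad6-R6Q libraries were above all 6 others (1.70 ± 0.13 from the deletion, edgeR adjusted p = 2.0e-09). MET2, homoserine acetyltransferase, rose by 1.86 ± 0.15 and MET3, ATP sulfurylase, by 1.17 ± 0.13. Of the 14 called genes of the group, 4 had CACGTG in the promoter, as did 10 of all 29. MET14 and MET2 overlap genes on the other strand.

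Phosphate genes need the strain background stated. PHO84, the high-affinity phosphate transporter (YML123C, chromosome XIII, 24037 to 25800), had 58.0, 36.9 and 31.0 CPM in rad6-R6Q and 4.76, 3.58 and 3.40 in rad6D tagged (3.41 ± 0.63, edgeR adjusted p = 0.0012). It had 45.1, 9.85 and 13.0 CPM in WT tagged but 429, 191 and 227 in WT untagged. The tagged wild type was thus low, and rad6-R6Q overlapped it. PHO5, the repressible acid phosphatase, had 67.6, 39.9 and 42.0 CPM in rad6-R6Q, above 13.9, 12.1 and 13.7 in rad6D tagged and 26.7, 16.8 and 19.4 in WT tagged. Of 17 phosphate genes, 7 were higher and 1 lower in rad6-R6Q (3 higher without replicate 1, 9 without replicate 2). The untagged deletion lowered 15 of the 17 and the tagged deletion 2. For PHO5 and VTC4, of the polyphosphate polymerase, the tagged and untagged deletion effects differed by 2.99 and 1.23 log2 units (edgeR interaction, adjusted p = 0.039 and 0.034). PHO89, a sodium-phosphate transporter, was called at 2.66 and missed the threshold without rad6-R6Q replicate 1 (adjusted p = 0.062).

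Proteasome genes rise in the deletion and rose less in rad6-R6Q. Of the 36 genes of the Ubr2 and proteasome list, 28 rose in the untagged deletion, and 11 were lower and none higher in rad6-R6Q than in rad6D tagged (median -0.27; 4 without rad6-R6Q replicate 1 and 11 without replicate 2; 20 with K. lactis scaling). Of the 11, 9 had GGTGGCAAA in the promoter, as did 27 of all 36. RPT2, a base ATPase gene (chromosome IV, 438047 to 439360), had 400, 473 and 560 CPM in rad6-R6Q, 653, 641 and 725 in rad6D tagged and 308, 318 and 360 in WT tagged. RPN1, which anchors ubiquitin receptors in the base, had 458, 781 and 588 CPM against 994, 1165 and 893. Both genes lay below the deletion in all libraries. Yet both calls missed the threshold without rad6-R6Q replicate 1 (edgeR adjusted p = 0.068 for RPT2 and 0.061 for RPN1). The RPN1 call also missed it without rad6D tagged replicate 2 (0.051). With only the compared groups neither gene was called (edgeR adjusted p = 0.093 for RPT2 and 0.081 for RPN1). UBR2, the ligase gene, was lower at 106, 92.9 and 98.3 CPM against 154, 156 and 165 (-0.68 ± 0.10, adjusted p = 8.6e-05). RPN4, the activator gene, did not differ past the threshold (85.1, 158 and 142 CPM against 159, 127 and 144; -0.16, adjusted p = 0.50).

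DNA damage inducible genes were called in 1 direction. Of 22 tested, 9 rose in the untagged deletion, and 10 were lower and none higher in rad6-R6Q (median -0.35; 5 without replicate 1, 10 without replicate 2). MAG1, the 3-methyladenine glycosylase gene, had 22.0, 25.2 and 28.7 CPM in rad6-R6Q, 65.2, 55.5 and 69.0 in rad6D tagged and 33.5, 36.5 and 35.8 in WT tagged. It lay below both strains (-1.32 ± 0.13 from the deletion, edgeR adjusted p = 1.8e-07), but shares bases with an opposite-strand gene. RAD54, the strand exchange motor, had 41.0, 39.1 and 37.1 CPM in rad6-R6Q and 59.4, 61.5 and 57.0 in rad6D tagged, and rad6-R6Q overlapped WT tagged (34.2, 41.8 and 34.7). DUN1, the checkpoint kinase, differed by -0.69 ± 0.14. Of the 12 genes of the Rad18 and post-replication repair list, only ELG1, which unloads PCNA, was called (-0.36, adjusted p = 0.047), and that call was lost without rad6-R6Q replicate 1 (adjusted p = 0.24).

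Some stress and storage genes were lower in rad6-R6Q, with weaker support. The untagged deletion raised 10 and lowered 1 of 25 heat shock genes. It raised 4 and lowered 1 of 16 trehalose and glycogen genes. The tagged deletion raised 13 and 7 of these and lowered none. Of 25 heat shock genes 8 were lower and none higher (median -0.29; 2 lower without rad6-R6Q replicate 1, 6 lower and 1 higher without replicate 2). Of 16 trehalose and glycogen genes 5 were lower and none higher (median -0.40; 2 without replicate 1, 5 without replicate 2). HSP42, a small heat shock protein gene, had 11.9, 34.8 and 21.3 CPM in rad6-R6Q and 72.1, 61.4 and 67.4 in rad6D tagged (-1.56 ± 0.34, edgeR adjusted p = 0.0042). GDB1, the glycogen debranching enzyme gene, had 13.4, 14.4 and 15.3 CPM against 29.3, 29.5 and 25.5 and lay in the WT tagged range of 11.2 to 17.7. HSP12, a membrane stress protein gene, was called at -2.07 (adjusted p = 0.045) but in none of the 6 fits that left out a library (adjusted p 0.063 to 0.12).

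Some meiotic genes, silent in vegetative cells, were less raised. Against WT tagged, 6 of 24 were called higher and 1 lower in rad6D tagged (median 0.35). In rad6-R6Q, 6 were likewise called higher than WT tagged and 3 lower (median 0.03). Of 24 tested, 11 rose in the untagged deletion, and 6 were lower and 1, SPS4, higher in rad6-R6Q (median -0.37; 5 lower without rad6-R6Q replicate 1, 7 without replicate 2). RIM4, a translational repressor of meiosis (YHL024W, chromosome VIII, 56649 to 58790), had 4.86, 7.01 and 4.14 CPM in rad6-R6Q, 27.2, 16.5 and 25.6 in rad6D tagged and 2.75, 1.22 and 2.78 in WT tagged. The rad6-R6Q libraries lay between (-2.10 ± 0.26, edgeR adjusted p = 1.2e-05). REC8, the meiotic cohesin, had 6.73, 5.998 and 6.72 CPM against 13.3, 11.3 and 11.3 and 3.01, 1.95 and 2.52 in WT tagged. POT1, the peroxisomal thiolase gene outside this list, followed the same pattern with 3.97, 2.95 and 3.72 CPM against 14.03, 8.26 and 14.9 in rad6D tagged.

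**Figure D3:**
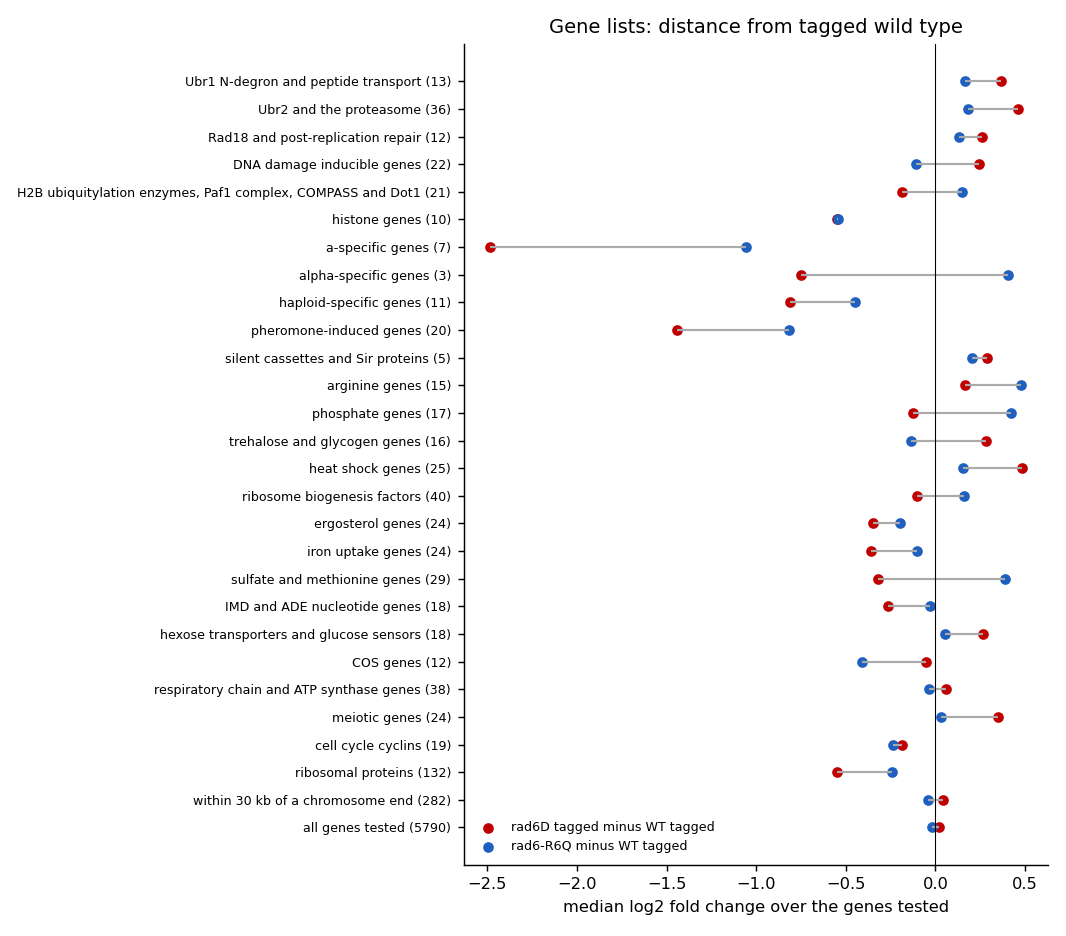
Median log2 fold change of each gene list against WT tagged, in rad6D tagged (red) and rad6-R6Q (blue), with the number of genes tested in brackets. The a-specific genes stand at -2.48 in rad6D tagged and -1.06 in rad6-R6Q, and the histone genes coincide at -0.55 and -0.54; both sets share the WT tagged libraries.

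Histone genes kept most of their loss. Of 10 tested, 7 fell in the untagged deletion, and 2, HTA1 and HTA2, which encode H2A and are near-identical, were higher in rad6-R6Q than in rad6D tagged. HTA1 had 315, 201 and 233 CPM in rad6-R6Q, 171, 156 and 174 in rad6D tagged and 461, 352 and 378 in WT tagged (0.58 ± 0.13, edgeR adjusted p = 0.0049). With only the compared groups HTA1 was not called (adjusted p = 0.055), and HTA2 was not called in 4 of the 6 fits that left out a library (adjusted p 0.064 to 0.087). The median of the 10 genes, 0.06, turned to -0.06 with K. lactis scaling. Of the 21 genes for H2B ubiquitylation, the Paf1 complex, COMPASS and Dot1, 2 were higher, PAF1 and SDC1, and neither was called without rad6-R6Q replicate 1 (adjusted p = 0.15 and 0.10). The median of that list, 0.05, turned to -0.07 with K. lactis scaling.

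The arginine gene ARG1 kept most of its rise. ARG1, argininosuccinate synthetase (YOL058W, chromosome XV, 219211 to 220473), had 874, 1024 and 865 CPM in rad6-R6Q, 1285, 1155 and 1423 in rad6D tagged and 45.7, 39.5 and 50.2 in WT tagged. The rad6-R6Q libraries were below the deletion without overlap, by -0.48 ± 0.11 log2 units (edgeR adjusted p = 0.0047), yet stood 4.35 units above WT tagged. With spread from the compared groups alone that small difference was not called (adjusted p = 0.083). Of the 15 arginine genes, 2 were higher, ARG4 and CAR1, and 1 lower in rad6-R6Q (median 0.10, and -0.02 with K. lactis scaling; 1 higher without rad6-R6Q replicate 1, and 2 higher and 3 lower without replicate 2). The CAR1 call was lost with K. lactis scaling (adjusted p = 0.094), with only the compared groups (0.068) and in 4 of the 6 fits that left out a library (0.058 to 0.19). ARG4, argininosuccinate lyase, had 865, 701 and 737 CPM, above 553, 495 and 553 in rad6D tagged and 380, 308 and 432 in WT tagged.

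A deletion effect was counted as kept when it was at least 2-fold in the untagged strains and the 95% interval of rad6-R6Q minus rad6D tagged lay within 0.5 log2 units of 0. By this rule 52 of 542 effects were kept, 22 of 295 rises and 30 of 247 falls. Between rad6-R6Q and rad6D tagged, 183 of the 295 and 174 of the 247 were not called. Most effects were therefore neither kept by this rule nor called as avoided. Of the 52, 51 were also called the same way in the tagged deletion, where 41.7% of all genes were called in either direction. Among all effects of at least 2-fold, 254 of the 295 rises and 153 of the 247 falls were called the same way there. The exception among the 52 was PHO81, whose tagged deletion effect was 0.06. With a bound of 0.3 the rule gave 4, with 1 it gave 258, and without rad6D tagged replicate 2 it gave 28. The intervals used the spread shared by all strains. The rule was not repeated with the spread of the compared groups alone. SPR28, a septin of sporulation (chromosome IV, 903781 to 905052), had 6.84, 5.08 and 6.20 CPM in rad6-R6Q, 5.25, 5.67 and 6.18 in rad6D tagged and 1.57, 0.729 and 1.14 in WT tagged. THI7, the thiamine transporter gene, had 333, 254 and 240 CPM against 333, 309 and 298, with 95.9, 98.5 and 95.1 in WT tagged. In each of these the mutant and deletion libraries overlapped and WT tagged lay apart.

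Among kept falls, YNL040W (chromosome XIV, 553380 to 554750) had 27.9, 26.6 and 25.8 CPM in rad6-R6Q, 26.8, 29.97 and 26.7 in rad6D tagged and 78.1, 60.3 and 82.0 in WT tagged. Its difference from the deletion was -0.06, with an interval of -0.33 to 0.22. CTS1, the endochitinase that separates daughter from mother cells, had 65.7, 60.7 and 56.5 CPM against 50.9, 62.4 and 45.002 in rad6D tagged and 106, 130 and 112 in WT tagged. The kept falls also held other cell wall and separation genes, named here after their values were seen: DSE1, SUN4, GAS1, GAS3 and TOS1 had untagged deletion effects of -1.14, -1.17, -1.01, -1.22 and -1.22 and rad6-R6Q differences from rad6D tagged of 0.25, -0.02, 0.08, -0.04 and -0.08. No share of cell wall genes was computed. HSP150 and SED1, also cell wall protein genes, were lower in rad6-R6Q than in rad6D tagged. The ribosomal protein genes RPS14A, RPS29A, RPL16A, RPL1B and RPS7B were among the kept falls too. HTB2, an H2B gene, was kept as well, at -1.20 in the untagged deletion and -0.13 between rad6-R6Q and rad6D tagged. SER3, the serine synthesis gene known for control by transcription of its upstream SRG1 RNA, rose in the deletion and had 277, 252 and 237 CPM in rad6-R6Q against 234, 213 and 223 in rad6D tagged and 129, 123.3 and 147 in WT tagged.

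**Figure D4:**
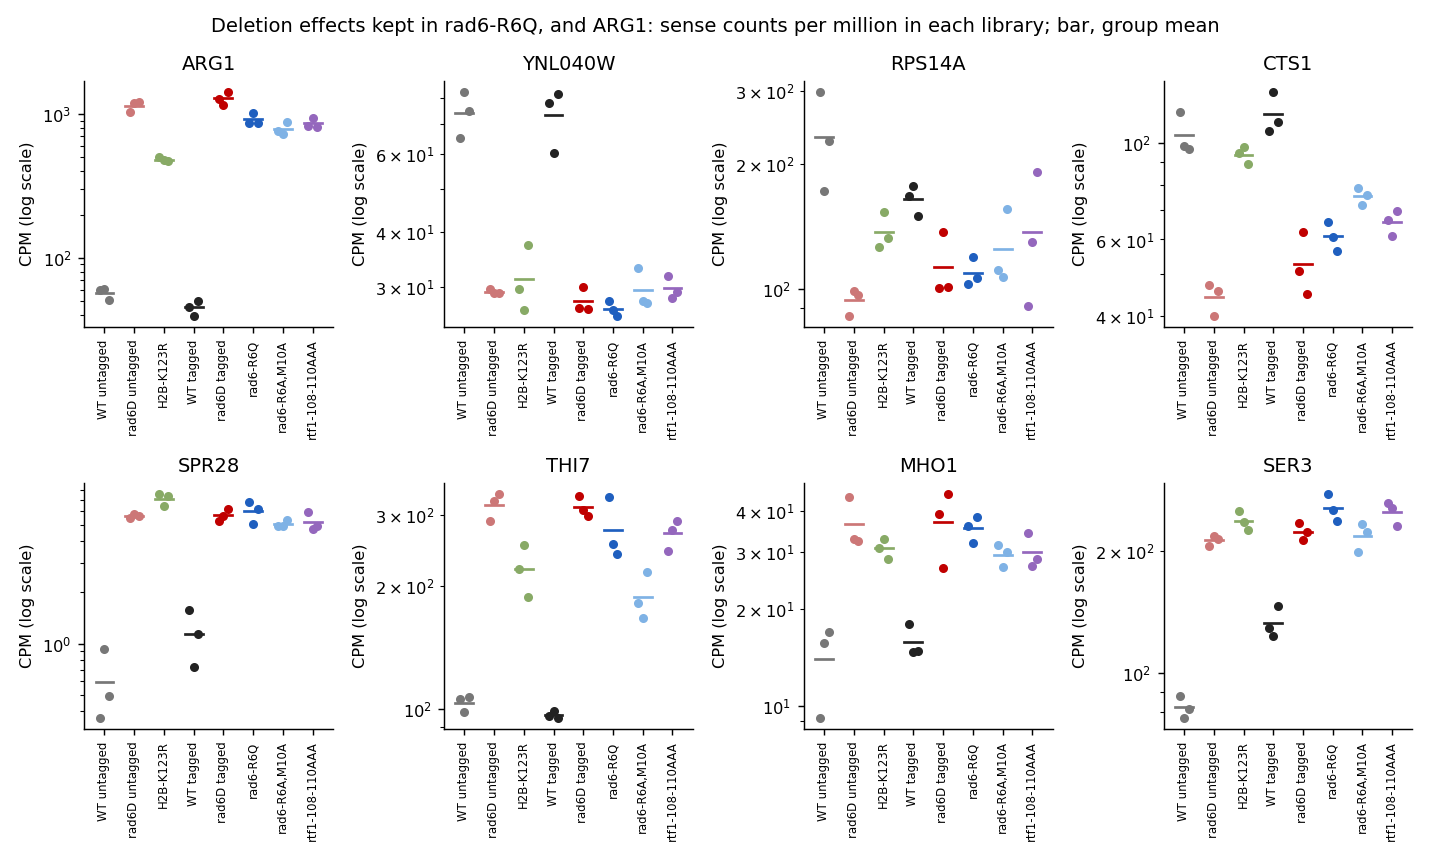
Sense CPM (log axis) of ARG1 and of 7 genes whose deletion effect was kept, in each library of the 8 strains; points are libraries and bars are group means. For SPR28 and YNL040W the rad6-R6Q libraries sit with rad6D tagged, at 5.08 to 6.84 and 25.8 to 27.9 CPM.

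Some genes lower in rad6-R6Q were not avoided deletion effects. COS8, a subtelomeric membrane protein gene (YHL048W, chromosome VIII, 6401 to 7546), had 23.3, 35.3 and 24.7 CPM in rad6-R6Q, 114, 104 and 115 in rad6D tagged and 123.2, 83.4 and 127 in WT tagged. Deletion did not change it past the threshold, whereas rad6-R6Q was lower by 1.99 ± 0.22 log2 units (edgeR adjusted p = 3.2e-06). IMD2, the inducible IMP dehydrogenase gene, had 43.1, 68.9 and 59.6 CPM against 105, 90.4 and 117 in rad6D tagged and 126, 164 and 166 in WT tagged. Both genes were also lower in rad6-R6Q than in rad6-R6A,M10A, by 1.60 and 0.90 log2 units (adjusted p = 0.0022 and 0.021), and they were the 2 genes called between those 2 alleles. COS8 was also low in rtf1-108-110AAA, at 38.0, 39.5 and 41.3 CPM, below rad6D tagged by 1.48 log2 units (adjusted p = 8.6e-05), so its low level was not particular to rad6-R6Q. Of 12 COS genes, 3 were lower in rad6-R6Q (2 without rad6-R6Q replicate 1, 8 without replicate 2), and of 282 genes within 30 kb of a chromosome end, 16 were higher and 36 lower (12 and 23 without rad6-R6Q replicate 1, 23 and 50 without replicate 2).

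For some further falls the tagged and untagged deletion effects were not alike, and for TUP1, AHP1 and SSC1 the difference between them passed the test. BMH2, a 14-3-3 protein gene, had 2.54, 3.05 and 6.62 CPM in rad6-R6Q, 13.5, 24.4 and 13.9 in rad6D tagged and 5.90, 9.00 and 6.43 in WT tagged (-2.08 ± 0.35 from the deletion, edgeR adjusted p = 0.00035). It was 1.28 higher in the tagged deletion and -0.35, not called, in the untagged one, and these effects were not shown to differ (1.62, edgeR interaction, adjusted p = 0.25). TUP1, the corepressor gene, had 2.10, 2.95 and 5.17 CPM against 9.52, 15.05 and 9.45 in rad6D tagged, and its deletion effects were 1.30 tagged and -1.42 untagged. The 2 deletion effects of TUP1 differed (2.72, edgeR interaction, adjusted p = 0.039), as did those of the peroxiredoxin gene AHP1 (2.49, adjusted p = 0.033) and the mitochondrial Hsp70 gene SSC1 (1.26, adjusted p = 0.025). HSP150 and SED1, cell wall protein genes, had the same shape at -2.16 and -1.69 between rad6-R6Q and rad6D tagged, and their deletion effects in the 2 backgrounds were not shown to differ (adjusted p = 0.25 and 0.30). For these genes rad6D tagged was the high strain and rad6D tagged replicate 2 its highest library, so a lower value in rad6-R6Q is not an avoided effect of the untagged deletion.

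The remaining lists are read against the background of 8.2% higher and 8.22% lower. Of 18 IMD and ADE genes 5 were higher and 1 lower, and 4 were higher without rad6-R6Q replicate 1 or without replicate 2. Of 24 ergosterol genes 3 were higher and none lower, but 4 were lower without replicate 2. Of 24 iron uptake genes 1 was higher, but 7 were without replicate 2. Of 38 respiratory genes 2 were lower, none without replicate 1 and 7 without replicate 2. Of 18 hexose transporter genes 1 was lower, and of 19 cyclin and cell cycle genes 1 was higher and 2 lower (4 lower without replicate 2). Of 5 silencing genes tested, 2, SIR3 and SIR4, were lower, and neither was called in every fit that left out a library. Of 3 alpha-specific genes tested, 1, MF(ALPHA)2, was higher at under 2 CPM.

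A second, independent pair asked whether the same genes distinguish loss of the H2B lysine from loss of Rad6. H2B-K123R against rad6D untagged, which shares no library with the main pair, gave 609 calls (10.5%). Of these, 234 had the same direction in rad6-R6Q against rad6D tagged, which is 24.6% of the rad6-R6Q list and 38.4% of the H2B list, and 27 had the opposite direction, all of them lower in rad6-R6Q. PTR2 was higher than in the matching deletion by 4.43 log2 units in rad6-R6Q and 4.67 in H2B-K123R, and BAR1 by 2.10 and 1.60. MAG1 was lower by 1.32 and 1.09. Over the 5790 genes the 2 differences had a Pearson correlation of 0.39 and a Spearman correlation of 0.27, as a description across genes that are not independent.

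For ARG1, H2B-K123R lay at 502, 478 and 471 CPM and rad6D untagged at 1041, 1191 and 1211, a fall of 1.25 log2 units. The same gene fell by 0.48 in rad6-R6Q, and the difference of the 2 differences was 0.76 (edgeR interaction, adjusted p = 0.0079). For CTS1, H2B-K123R stood 1.08 above its deletion and rad6-R6Q 0.21 above its own, a difference of -0.87 (adjusted p = 0.0047). YNL040W stayed low in both, with 29.6, 26.7 and 37.4 CPM in H2B-K123R.

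Between rad6-R6Q and rtf1-108-110AAA, edgeR called none of the 5790 sense and none of the 3741 antisense tests, with 235 and 319 at an unadjusted p under 0.05. Against rad6-R6A,M10A the 2 sense calls were COS8 and IMD2, with 627 at an unadjusted p under 0.05, and no antisense test was called (265 at an unadjusted p under 0.05). These counts do not show that the alleles act alike: for PTR2 the interval of rad6-R6Q minus rtf1-108-110AAA ran from -0.47 to 0.09 log2 units, and for PRM1 from -1.01 to -0.36 although its adjusted p was 0.63.

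On the antisense strand the avoided effects were fewer. Antisense counts were 5.39 ± 0.11% of S. cerevisiae counts in rad6-R6Q and 5.41 ± 0.16% in rad6D tagged (SD, n = 3; two-sided exact permutation test, p = 0.9, smallest possible 0.1). Of 3741 genes tested, 99 differed in antisense counts (2.65%), 46 higher (1.23%) and 53 lower (1.42%) in rad6-R6Q; with the replicate number as a block the count was 160. The balance depended on the scaling: 62 were higher and 30 lower with the antisense libraries' own sizes, and 22 higher and 87 lower with K. lactis scaling. In the untagged deletion 850 rose (22.7%) and 253 fell (6.76%). Of the 850, 37 were lower in rad6-R6Q and none higher, and of the 253, 32 were higher and 3 lower. Leaving out a library gave 44 to 105 calls, and 26 were called the same way in all 6 such fits. Of all antisense counts, 83.9% lay in genes that overlap a gene on the other strand, where they cannot be told apart from that gene's sense reads.

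PTR2 was the exception in size. Its antisense level was 0.994, 1.75 and 1.45 CPM in rad6-R6Q, 18.7, 24.7 and 20.8 in rad6D tagged and 0.131, 0.122 and 0.883 in WT tagged. The strands moved in opposite directions, with sense high and antisense low in rad6-R6Q (antisense -3.91 ± 0.26, edgeR adjusted p = 1.1e-11). H2B-K123R, at 1.43, 1.73 and 1.33 CPM, was likewise far below rad6D untagged at 22.6, 24.7 and 22.3. FUS1 antisense was 1.21, 1.57 and 1.34 CPM in rad6-R6Q and 4.15, 4.56 and 4.92 in rad6D tagged (-1.71 ± 0.32, edgeR adjusted p = 0.0023). FUS1 overlaps a gene on the other strand, so these counts cannot be told apart from that gene's sense reads.

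HPF1, a subtelomeric cell wall glycoprotein gene (YOL155C, chromosome XV, 28703 to 31606), showed the reverse. Its antisense level was 307, 240 and 314 CPM in rad6-R6Q, 98.7, 78.7 and 101 in rad6D tagged and 232, 243 and 282 in WT tagged. Its sense level was 4.86, 4.34 and 5.17 CPM in rad6-R6Q and 15.5, 24.9 and 14.4 in rad6D tagged. The antisense transcript was at the wild-type level again (1.63 ± 0.14 from the deletion, edgeR adjusted p = 3.3e-09) while the sense transcript was lower by 1.93 ± 0.26. Counted without strand, HPF1 was higher by 1.39, since its antisense counts outnumber its sense counts.

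RIF2, which encodes a telomere length regulator (YLR453C, chromosome XII, 1041799 to 1042986, minus strand) and lies just upstream of SST2, had antisense levels of 5.96, 5.44 and 5.27 CPM in rad6-R6Q, 0.732, 1.36 and 1.64 in rad6D tagged and 19.4, 19.8 and 22.1 in WT tagged. Its antisense thus stood in the same 3 steps as SST2 sense (2.15 ± 0.28 from the deletion, edgeR adjusted p = 8.9e-06), and its own sense level did not differ past the threshold (-0.33, adjusted p = 0.15). PRR2, a kinase gene tied to pheromone signalling, had antisense levels of 20.3, 16.5 and 16.1 CPM in rad6-R6Q, above 4.88, 4.32 and 4.54 in rad6D tagged and 11.4, 8.39 and 7.95 in WT tagged. H2B-K123R was higher than its deletion there as well, at 26.5, 24.6 and 31.0 CPM against 6.27, 6.58 and 7.23. BST1, a GPI inositol deacylase gene, differed by 1.58 ± 0.29 (adjusted p = 0.0017) and stayed below WT tagged by 1.25.

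**Figure D5:**
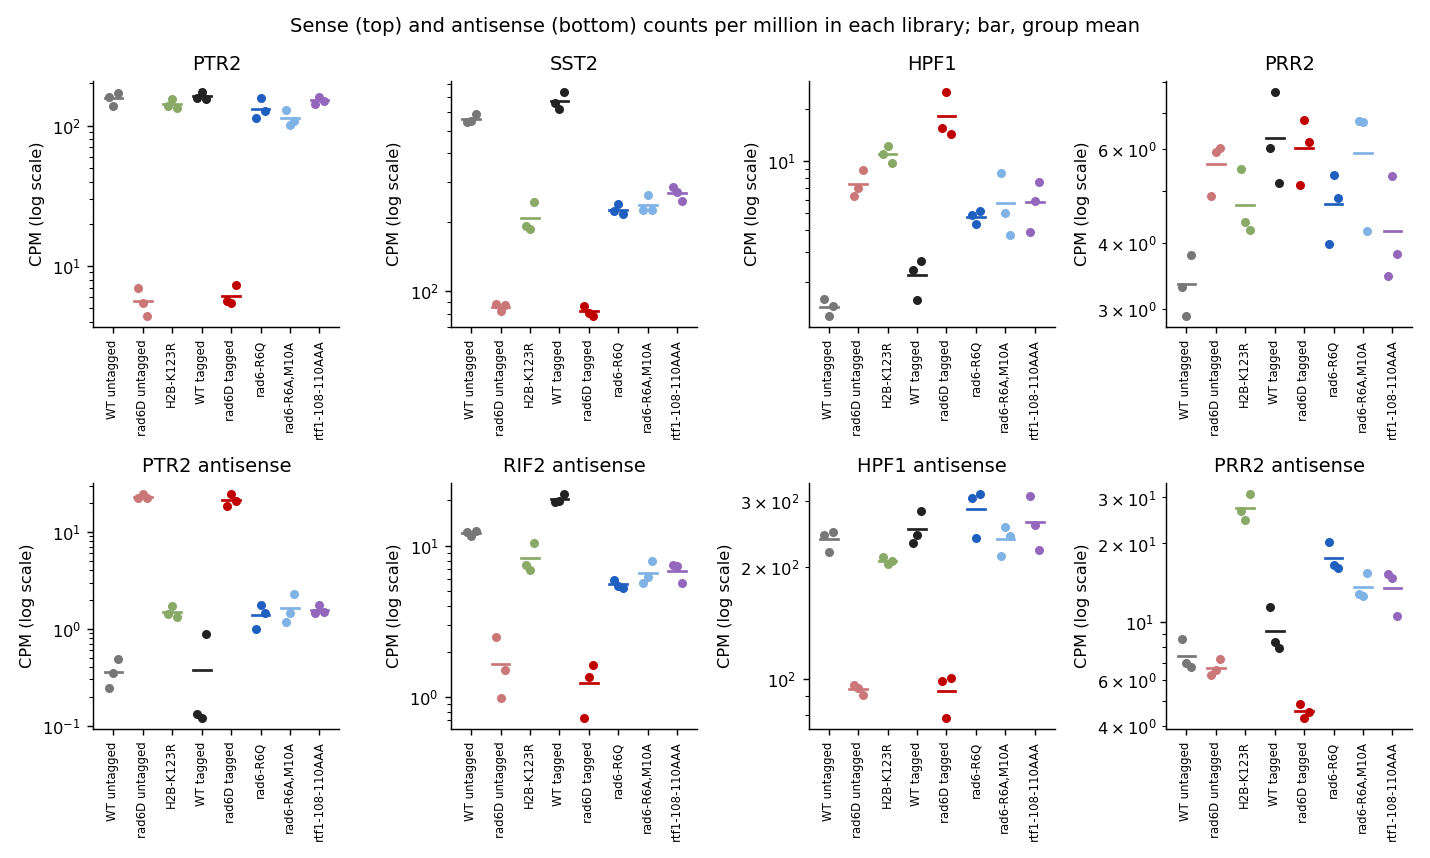
Sense (top) and antisense (bottom) CPM, both on log axes, in each library of the 8 strains, for PTR2, the SST2 and RIF2 neighbours, HPF1 and PRR2; points are libraries and bars are group means. PTR2 antisense is 18.7 to 24.7 CPM in rad6D tagged and 0.994 to 1.75 CPM in rad6-R6Q, and HPF1 antisense 78.7 to 101 and 240 to 314 CPM.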

How the data were processed

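The authors deposited raw counts per gene on the sense strand, the antisense strand and without strand for S. cerevisiae, and counts for K. lactis; STAR 2.7.5a, featureCounts, DESeq2 and the builds R64 and sacCer3 are named in the submitters' processing notes. Annotation came from R64. All 24 libraries (8 groups of 3) were fitted with edgeR 4.0.16 (filterByExpr, TMM, robust quasi-likelihood, Benjamini-Hochberg adjusted p under 0.05); antisense tests used the sense library sizes. DESeq2 1.42.0, other scalings, no filter and leave-one-out fits were alternatives. Named genes were 8 preset genes, the 10 largest sense rises and falls at 10 CPM or more without overlap, 4 of each for antisense at 2 CPM or more, up to 4 calls per list, and 4 kept effects per direction; a few of these are not reported here. The members, gene lists and tests were chosen with earlier results of these data known. Same-numbered rad6-R6Q and rad6D tagged libraries deviated together (correlations 0.17, 0.41 and 0.37). The labels call replicates biological. Fits were checked on simulated data in which all groups had the same spread and no replicate effect. That check does not cover the wider spread of rad6-R6Q.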

Additional observations from a re-analysis of the deposited data

Results flagged for a closer look

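The results below were picked out because the difference of rad6-R6Q from rad6D tagged was unlike the difference of H2B-K123R from rad6D untagged, by an edgeR interaction test with adjusted p under 0.05; the 2 pairs also differ in tags. The interaction, on the log2 scale and as rad6-R6Q pair minus H2B-K123R pair, was positive for ARG1 (0.76), FUS1 (0.93), NOP4 (0.67) and the methionine transporter gene MMP1 (0.71). It was negative for TUP1 (-3.70), HSP150 (-3.40), BMH2 (-3.11), AHP1 (-3.00), HPF1 (-2.50), SED1 (-2.20) and COS8 (-2.01). Smaller negative values were those of CLN3 (-1.65), SSC1 (-1.54), IMD2 (-1.09) and CTS1 (-0.87). In TUP1 the rad6-R6Q pair gave -1.73 and the H2B-K123R pair 1.97, so the 2 pairs had opposite directions, and in FUS1 they gave 2.88 and 1.95, so they shared one. Over all sense genes 137 such interactions were called, 112 of them negative, and over antisense genes 3.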

How the results depend on the processing

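Sense calls were 951; they were 339 with only the compared groups, 531 to 1316 when a library was left out, and 376 when a call had to stand in all 6 of those fits (added after seeing the data). With K. lactis scaling 241 were higher and 721 lower. Antisense calls were 99; they were 160 with the replicate block and 44 to 105 when a library was left out, while the block changed the count of sense calls by less than 1.5 times. Deletion rises lower in rad6-R6Q numbered 284, 497 with K. lactis scaling, and 99 with only the compared groups; falls that were higher numbered 288, 121 and 170 under the same settings, and 177 to 306 when a library was left out. Calls shared with H2B-K123R numbered 234, 398 and 129. Kept effects numbered 52, 4 with a bound of 0.3 and 258 with a bound of 1, and 28 to 59 when a library was left out. Counted without strand, HPF1 reversed to 1.39 and PRR2 to 1.07 in log2 fold change. Of 1454 alternative values of 112 named results, 1331 kept direction and call, 119 lost the call and 2 gained it. Depth and the spread of rad6-R6Q limit genes of a few CPM. The wider spread of rad6-R6Q also bears on its other calls and intervals, which used the spread shared by all strains.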
